A study of Drosophila melanogaster with 24 samples.

Results

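The 10 genes described here form the Drosophila c-Jun N-terminal kinase (JNK) route and its tumour necrosis factor (TNF) arm: egr, wgn, msn, hep, bsk, Jra, kay, puc, Ets21C and Gadd45. They were chosen by name, and every probe set that the array's annotation gives to one of them alone was taken. This gave 16 of the 18769 probe sets tested, and 10 of the 11982 genes that these probe sets name. bsk and hep had 3 probe sets each, kay and egr had 2 each, and the other genes had 1 each. By RefSeq's gene table for Drosophila (assembly Release 6 plus ISO1 MT), bsk and Ets21C lie on arm 2L, Jra, egr and Gadd45 on 2R, msn on 3L, puc and kay on 3R, and hep and wgn on the X chromosome. The array files name no genome build, so positions are not given.

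The JNK route carries stress, wound and cell death signals. Eiger, the fly TNF ligand made by egr, binds receptors such as Wengen, made by wgn. Kinases including Misshapen (msn) act upstream of the JNK kinase Hemipterous (hep), which phosphorylates Basket (bsk), the fly JNK. Basket acts on the Jun protein Jra, which pairs with the Fos protein Kayak (kay) as the AP-1 transcription factor. AP-1 raises puc, which encodes a phosphatase that switches Basket off again, so puc RNA is widely read as a sign of JNK activity. Activity of the kinases themselves is set by phosphorylation and cannot be read from RNA.

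The study mixed populations of S2 cells, a phagocytic blood-cell-like line of Drosophila, for 45 minutes and measured RNA of each mix on 24 single-colour arrays. The mixes with a Delta line were S2-NFull/S2-Dl, S2-NDCterm/S2-Dl and S2/S2-Dl, where Dl stands for a line that expresses Delta, the ligand of Notch. The mixes with a truncated ligand were S2-NFull/S2-DlDI and S2/S2-DlDI, where DlDI is Delta without its intracellular domain. S2-NFull/S2 and S2/S2-NDCterm held a line with NFull or NDCterm and plain S2 cells. The labels do not spell NFull and NDCterm out, and they are taken here as forms of Notch. S2/S2 held plain cells only and served as the reference. Per the labels, 2 independent samples were pooled for each replicate. The labels give neither promoter, clone number nor cell ratio, and all 8 mixes share the S2 background.

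The RNA of a mix was extracted from its 2 populations at once. Expression particular to a line, an answer to contact, and a change in the share of cells therefore cannot be told apart in any mix of a line with plain cells. Fewer cells of a type and less RNA per cell cannot be told apart either. The labels' source entry is late embryonic epidermis, while 9 of 11 plasmatocyte markers had a signal above 100 in S2/S2 against 1 of 11 epidermal markers, with medians of 318 and 9.05. Of the plasmatocyte markers Hml was near 0 at a signal of 8.79.

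On 5 occasions a pair of arrays bore 1 title, and 4 of these pairs (8 arrays) differed more than the closest separate replicates. The SD of their log2 difference was 0.34 to 0.384, within the 0.213 to 0.488 of separate replicates. The pair of S2-NFull/S2 replicate 1 also had a Delta difference, 0.385, within that of separate replicates (up to 0.483). These 8 arrays entered no test and are only described. In 3 of the 4 pairs the arrays differed in Delta signal: 12295 and 156 in S2-NFull/S2-DlDI replicate 1, 11031 and 1.67 in S2-NFull/S2-DlDI replicate 3, and 11382 and 13.9 in S2-NDCterm/S2-Dl replicate 2. The highest Delta signal in S2/S2 was 41.3. In the samples tested, Delta averaged 12309 in S2/S2-Dl, 34.0 in S2/S2, 13.6 in S2/S2-DlDI and 5.60 in S2-NFull/S2-DlDI. The Delta probe set thus did not show the truncated ligand. The high Delta signals above under S2-NFull/S2-DlDI titles are unlike the tested samples of the DlDI mixes. ry, the other check of the lines, averaged 7092 in S2/S2-Dl, 16.9 in S2/S2 and 10.3 in S2/S2-DlDI. The tests rested on 15 samples: 1 of S2-NFull/S2-Dl, 2 of S2-NDCterm/S2-Dl, 3 of S2/S2-Dl, 1 of S2-NFull/S2-DlDI (the mean of 2 arrays), 2 of S2/S2-DlDI, 1 of S2-NFull/S2, 2 of S2/S2-NDCterm and 3 of S2/S2. S2/S2 replicate 3 and replicate 2 carry the same sample code, and their titles were followed. S2/S2 replicate 2 had the highest array median, 20.9, against 9.82 to 14.2 on the other 23 arrays.

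Each value is a linear signal that the authors scaled to a common trimmed mean. Changes are differences of log2(signal + 32), given with their standard error, and the adjusted p is limma's Benjamini-Hochberg value over all tested probe sets in 1 comparison. A probe set was called at an adjusted p below 0.05. The number of arrays limits the precision, and a mix with 1 sample borrows the spread of the others.

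**Figure D1:**
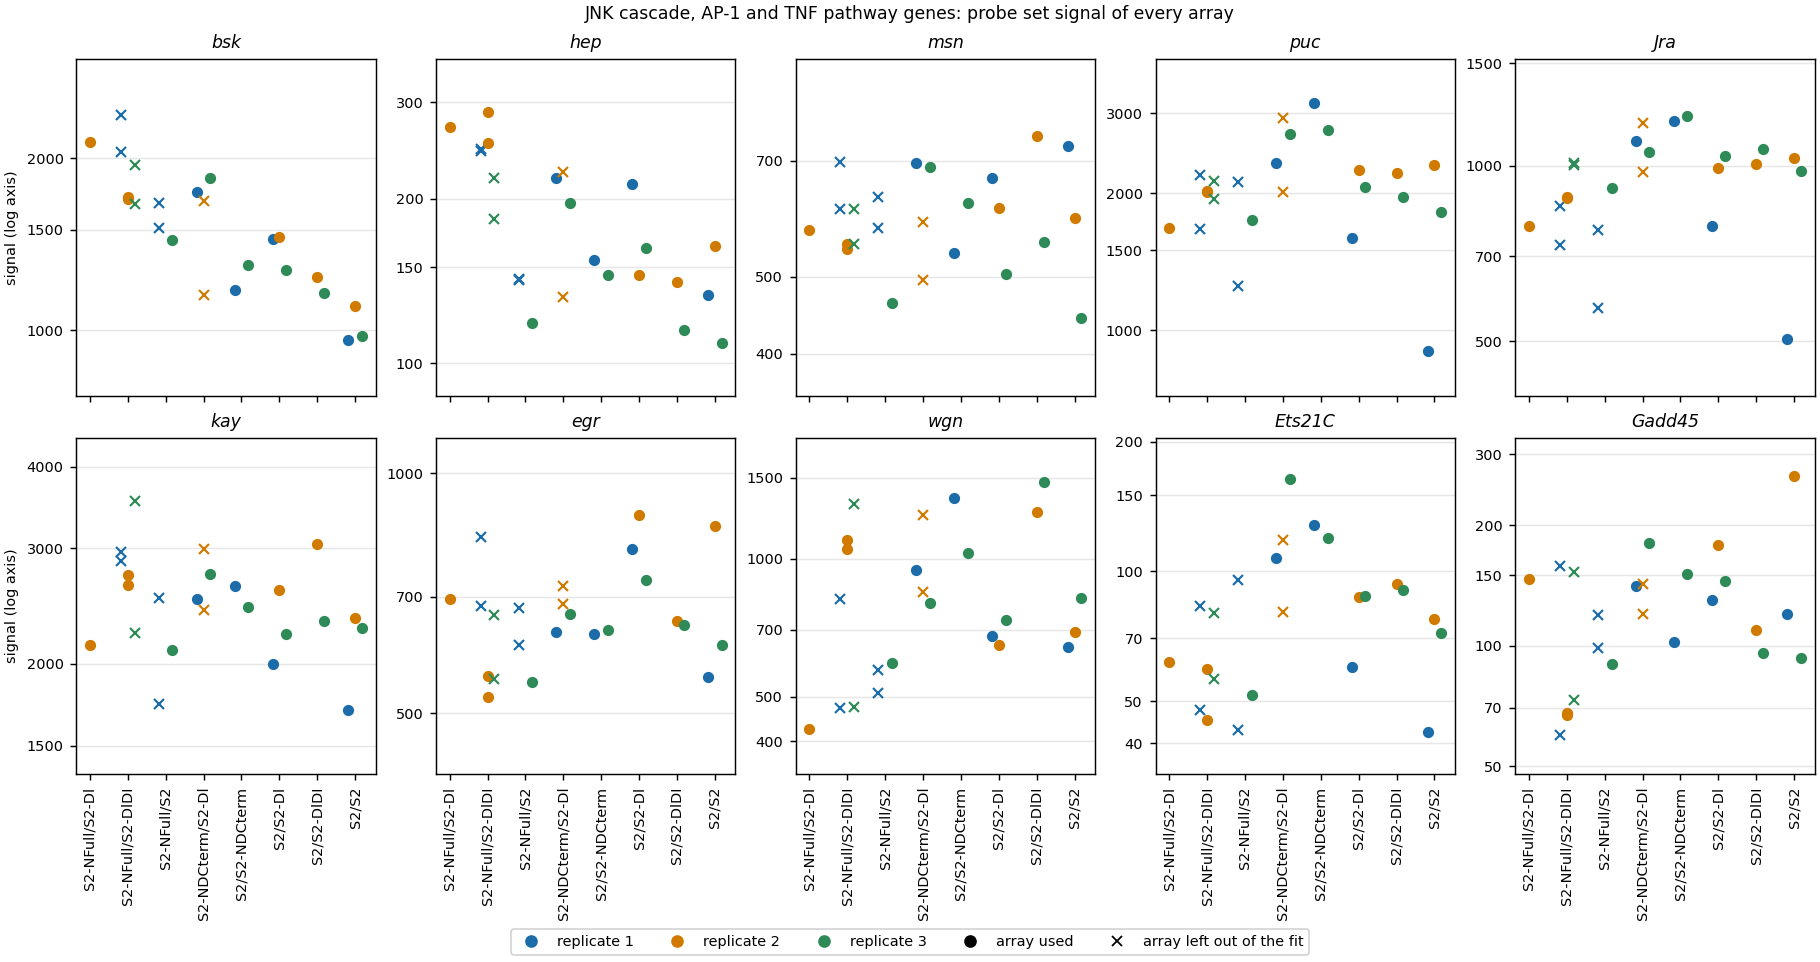
Signal (log axis) of the highest-mean probe set of each gene on all 24 arrays, grouped by mix and coloured by replicate number. Circles were tested and crosses were left out. wgn is at 1264 and 1468 in S2/S2-DlDI, above the 3 S2/S2 samples (642 to 821), bsk is lowest in S2/S2, and S2/S2 replicate 1 lies at the bottom for puc, Jra, kay and Ets21C.

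The receptor gene wgn had the widest spread of the 16 probe sets over the fitted samples, with an SD of 0.48 on the log2 scale. The mix with the highest mean was S2/S2-DlDI, where wgn was at 1264 in replicate 2 and 1468 in replicate 3, against 642, 693 and 821 in S2/S2. The groups did not overlap. Means were 1366 ± 144 (SD, n = 2) in S2/S2-DlDI and 718 ± 92.4 (SD, n = 3) in S2/S2. wgn rose by 0.90 ± 0.15 on the log2 scale, a fold of 1.87 (95% interval of the log2 change 0.59 to 1.21, adjusted p = 0.0428 by limma). It was the only member called, 1 of 16 probe sets, where 0.0746% of all probe sets were called. The call was lost without S2/S2 replicate 1 (adjusted p = 0.0785) or 2 (0.15), and without S2/S2-DlDI replicate 2 (0.294) or 3 (0.595), while the log2 change stayed between 0.80 and 1.01. It was also lost with quantile normalization (0.0557), an offset 4 times as large (0.0526) and every shared title averaged (0.0535). With replicate number as a block the call was kept (0.0314).

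Full Delta beside plain cells gave no such level. wgn was at 677, 649 and 736 in S2/S2-Dl, within the range of S2/S2, and its change against S2/S2 was -0.06 ± 0.13 (95% interval -0.34 to 0.22, adjusted p = 0.901). Set directly against the truncated ligand, wgn was lower in S2/S2-Dl, 687 ± 44.5 (SD, n = 3), than in S2/S2-DlDI, 1366 ± 144 (SD, n = 2). Every S2/S2-Dl sample lay below both S2/S2-DlDI samples. The log2 change was -0.96 ± 0.15 (adjusted p = 0.00534 by limma), and it was again the only member called, where 0.639% of all probe sets were called. Without S2/S2-DlDI replicate 3 the adjusted p was 0.148, and with replicate number as a block it was 0.00352. These comparisons share the S2/S2 or S2/S2-DlDI samples, so they are not independent.

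The same order was seen beside NFull cells, with 1 sample a mix. wgn was 424 in S2-NFull/S2-Dl, the lowest of the 15 samples, and 1073 in S2-NFull/S2-DlDI. The log2 change was -1.28 ± 0.23 (adjusted p = 0.0379 by limma), the only call among 16 member probe sets, where 0.213% of all were called. Against S2-NFull/S2 (591) the change was 0.83 ± 0.23 for S2-NFull/S2-DlDI (adjusted p = 0.904) and -0.45 ± 0.23 for S2-NFull/S2-Dl (adjusted p = 0.57). With every shared title averaged the first of these 3 changes was -0.88 and was no longer called (adjusted p = 0.186), and it was not called with an offset 4 times as large (0.0598).

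The arrays left out for S2-NFull/S2-DlDI fell on both sides of this difference. The array of replicate 1 with a Delta signal of 12295 had a wgn signal of 472, and its partner with a Delta signal of 156 had 815. The array of replicate 3 with a Delta signal of 11031 had a wgn signal of 475, and its partner with a Delta signal of 1.67 had 1316. Arrays of this title with high Delta signal thus had wgn signals near the 424 of S2-NFull/S2-Dl, and those with low Delta signal lay nearer the 1048 and 1097 of replicate 2. For S2-NDCterm/S2-Dl replicate 2, the array with a Delta signal of 11382 had a wgn signal of 846 and the one with 13.9 had 1243.

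A measure of RNA quality, the ratio of the 3′ to the 5′ Gapdh control probe set, moved with wgn between the ligand lines. It was 1.95, 1.74 and 2.82 in S2/S2-Dl, against 2.72 and 3.13 in S2/S2-DlDI, with 1 of the 3 S2/S2-Dl samples inside that range. Beside NFull it was 1.46 in S2-NFull/S2-Dl, against 2.65 on both averaged arrays of S2-NFull/S2-DlDI. S2/S2-DlDI overlapped the 2.71, 2.77 and 2.97 of S2/S2. On the left-out arrays of S2-NFull/S2-DlDI it was 1.87 and 1.76 where Delta was high and wgn low, and 2.80 and 3.08 where Delta was low. The left-out arrays of S2-NDCterm/S2-Dl had 2.25 beside a wgn signal of 846 and 2.16 beside 1243. Over the 15 samples wgn and the ratio had a Pearson r of 0.394 (permutation adjusted p = 0.293 over 10 genes) and a Spearman rho of 0.346 (permutation adjusted p = 0.412). Within mixes r was 0.69, and without the 2 samples farthest from the median ratio it was 0.205. The part of this ratio in the wgn results was not tested.

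Cells with NDCterm and no ligand also had more wgn signal than plain cells without passing the test. wgn was 1355 and 1026 in S2/S2-NDCterm, against 642, 693 and 821 in S2/S2, a change of 0.70 ± 0.15 with an adjusted p of 0.101 (0.0491 without S2/S2 replicate 3). With Delta cells in place of plain cells beside NDCterm it was 942 and 799 in S2-NDCterm/S2-Dl, against 1355 and 1026 in S2/S2-NDCterm (-0.43 ± 0.16, adjusted p = 0.465). By mean, the order of wgn over the mixes was S2/S2-DlDI (1366), S2/S2-NDCterm (1191), S2-NFull/S2-DlDI (1073), S2-NDCterm/S2-Dl (870.5), S2/S2 (718), S2/S2-Dl (687), S2-NFull/S2 (591) and S2-NFull/S2-Dl (424). Neighbours in this order did not separate where both had more than 1 sample: S2/S2-DlDI overlapped S2/S2-NDCterm, S2-NDCterm/S2-Dl overlapped S2/S2, and S2/S2 overlapped S2/S2-Dl.

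Of 4787 other single-gene probe sets with a mean signal of at least 100, those closest to wgn over the 15 samples were CG8379 (Pearson r = 0.909) and a pair of probe sets of Prosap (0.895 and 0.89), which encodes a scaffold protein of the Shank family. The samples share mixes, so these values describe likeness only. Among the 15 measured genes of the 10 protein-coding genes on each side of wgn, 5 had a positive change in S2/S2-DlDI against S2/S2. None was called, and 35.5% of all probe sets were positive, with 0.0746% called. In S2/S2-Dl against S2/S2-DlDI, 7 of the 15 were positive and 1 was called, where 53.8% of all were positive and 0.639% called.

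The ligand gene egr changed in no comparison past the test. Its brighter probe set had signals of 805, 887 and 734 in S2/S2-Dl, against 555, 859.7 and 609 in S2/S2, and the groups overlapped. The change was 0.27 ± 0.14 (adjusted p = 0.465). The dimmer probe set gave 218, 251 and 114 in S2/S2-Dl, against 122, 156 and 118 in S2/S2 (0.42 ± 0.21, adjusted p = 0.459). S2/S2-DlDI, at 653 and 646 on the brighter probe set, was within the range of S2/S2 (-0.03 ± 0.15, adjusted p = 0.962). Over the 15 samples the brighter probe set stayed between 541 and 887.

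The upstream kinase gene msn had 665, 610.3 and 504 in S2/S2-Dl, 751 and 554 in S2/S2-DlDI, and 731, 592 and 443 in S2/S2. In both mixes the samples overlapped those of S2/S2. Its changes were 0.03 ± 0.17 (adjusted p = 0.964) for S2/S2-Dl and 0.15 ± 0.19 (adjusted p = 0.826) for S2/S2-DlDI. The 95% intervals, -0.33 to 0.39 and -0.25 to 0.56, are the range that these samples allow.

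hep, the kinase directly above Basket, gave different values with its probe sets. The one with the highest mean had 270.0 in S2-NFull/S2-Dl and 270.3 in S2-NFull/S2-DlDI, against 119 in S2-NFull/S2. Both changes were 1.00 ± 0.27 on the log2 scale and neither was called (adjusted p = 0.218 and 0.845). On all 6 arrays titled S2-NFull/S2-DlDI, those left out included, this probe set lay between 183 and 288, above the 119, 142 and 143 of the 3 arrays titled S2-NFull/S2. A further hep probe set did not share this: it had 115 in S2-NFull/S2-Dl and 201 in S2-NFull/S2-DlDI, against 147 in S2-NFull/S2. The correlation of these hep probe sets over the 15 samples was 1.3e-05, and 0.709 within mixes. The remaining hep probe set stayed at signals of 10.5 to 28.7 in the fitted samples, where the offset of 32 holds changes small. Beside plain cells hep was 212, 145 and 163 in S2/S2-Dl, against 133, 164 and 109 in S2/S2, with overlap (0.29 ± 0.16, adjusted p = 0.488).

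bsk, the JNK gene itself, was higher in S2/S2-Dl than in S2/S2. Its brightest probe set had 1441, 1457 and 1273 in S2/S2-Dl, against 962, 1102 and 977 in S2/S2. The lowest S2/S2-Dl sample lay above the highest S2/S2 sample. Means were 1390.4 ± 102 in S2/S2-Dl and 1013 ± 77.0 in S2/S2 (SD, n = 3 each). The log2 change was 0.44 ± 0.10, a fold of 1.36 (95% interval of the log2 change 0.23 to 0.66, adjusted p = 0.0456 by limma). It was the only call among 16 member probe sets, where 1.31% of all probe sets were called. With replicate number as a block, the calls over all probe sets numbered 540, against 245 without it, and bsk kept its call (adjusted p = 0.0154).

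The bsk call lies close to the threshold. It was lost without S2/S2 replicate 1 (adjusted p = 0.066) or 3 (0.0902) and without S2/S2-Dl replicate 1 (0.172), 2 (0.239) or 3 (0.053), and was kept without S2/S2 replicate 2 (0.0355). It was also lost with quantile normalization (0.0675), an offset 4 times as large (0.0511) and every shared title averaged (0.0562). The log2 change stayed between 0.41 and 0.51 in all of these.

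The other bsk probe sets lay higher in S2/S2-Dl too, without passing the test. The intermediate one had 523, 577 and 389 in S2/S2-Dl, against 293, 383 and 334 in S2/S2 (0.51 ± 0.15, adjusted p = 0.153). The dimmest had 23.4, 36.6 and 20.6 in S2/S2-Dl, against 15.6, 11.9 and 8.94 in S2/S2 (0.41 ± 0.19, adjusted p = 0.419). On each of the 3 probe sets no S2/S2-Dl sample overlapped S2/S2. How often all probe sets separate in this way was not counted. The bsk probe sets measure 1 transcript population in the same samples and are not separate evidence.

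bsk was also higher wherever a Delta line replaced plain cells beside another line, again without a call. Beside NDCterm it had 1746 and 1846 in S2-NDCterm/S2-Dl, against 1177 and 1299 in S2/S2-NDCterm (0.53 ± 0.12, adjusted p = 0.107). Beside NFull it had 2137 in S2-NFull/S2-Dl, the highest of the 15 samples, against 1438 in S2-NFull/S2 (0.56 ± 0.17, adjusted p = 0.292). The truncated ligand gave 1239 and 1162 in S2/S2-DlDI, both above S2/S2 (0.24 ± 0.11, adjusted p = 0.64). S2-NFull/S2, at 1438 and with left-out arrays at 1509.7 and 1671, lay above S2/S2 without Delta cells (0.49 ± 0.14, adjusted p = 0.412). The direct comparison of S2/S2-Dl with S2/S2-DlDI gave 0.20 ± 0.11 (adjusted p = 0.703).

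The Gapdh 3′ to 5′ ratio also moved with bsk. It was 1.95, 1.74 and 2.82 in S2/S2-Dl, against 2.71, 2.77 and 2.97 in S2/S2. It was 1.58 and 1.57 in S2-NDCterm/S2-Dl and 1.46 in S2-NFull/S2-Dl. Over the 15 samples the brightest bsk probe set and this ratio had a Pearson r of -0.763 (permutation adjusted p = 0.0106 over 10 genes) and a Spearman rho of -0.814 (permutation adjusted p = 0.0039). Within mixes r was -0.766, and without the 2 samples farthest from the median ratio it was -0.625. The part of this ratio in the bsk result was not tested. No other member had an adjusted p below 0.05 with it in either measure.

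Most measured genes beside bsk on arm 2L had a positive change in S2/S2-Dl too. Of the 19 measured genes among the 10 protein-coding genes on each side, 16 were positive in S2/S2-Dl against S2/S2, with a median of 0.14. Over all probe sets 37.9% were positive, with a median of -0.05. Of the 19, 15 had a mean signal of at least 100, where the median over all probe sets was 10.2. The shares of all probe sets are thus not those of equally bright ones. These neighbours were looked up after the bsk values were seen, and no test was made. CG31717, the next gene, was called at 0.66 (adjusted p = 0.0183) and followed bsk over the 15 samples with r = 0.891. It was the 1 call among the 19, where 1.31% of all probe sets were called. In S2-NFull/S2 against S2/S2, with no Delta cells in either mix, 17 of the 19 were positive, with a median of 0.12. Over all probe sets 36.8% were positive there, with a median of -0.06. The count was 8 in S2/S2-DlDI (35.5% of all probe sets) and 10 in S2/S2-NDCterm (37.5%), each against S2/S2. It was 17 in S2-NDCterm/S2-Dl compared with S2/S2-NDCterm, 15 in S2-NFull/S2-Dl and 7 in S2-NFull/S2-DlDI, both compared with S2-NFull/S2. In this order 52.5%, 58.2% and 52.6% of all probe sets were positive. Set against the truncated ligand, Delta cells gave 18 positive beside plain cells (53.8% of all probe sets) and 17 beside NFull (55.7%). The probe sets closest to the intermediate bsk probe set by correlation were those of CG1407 (0.959), Pgls (0.948), an enzyme of the pentose phosphate route, and CYLD (0.942), a deubiquitinase. CYLD also lies on arm 2L, with 15 protein-coding genes between it and bsk.

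**Figure D2:**
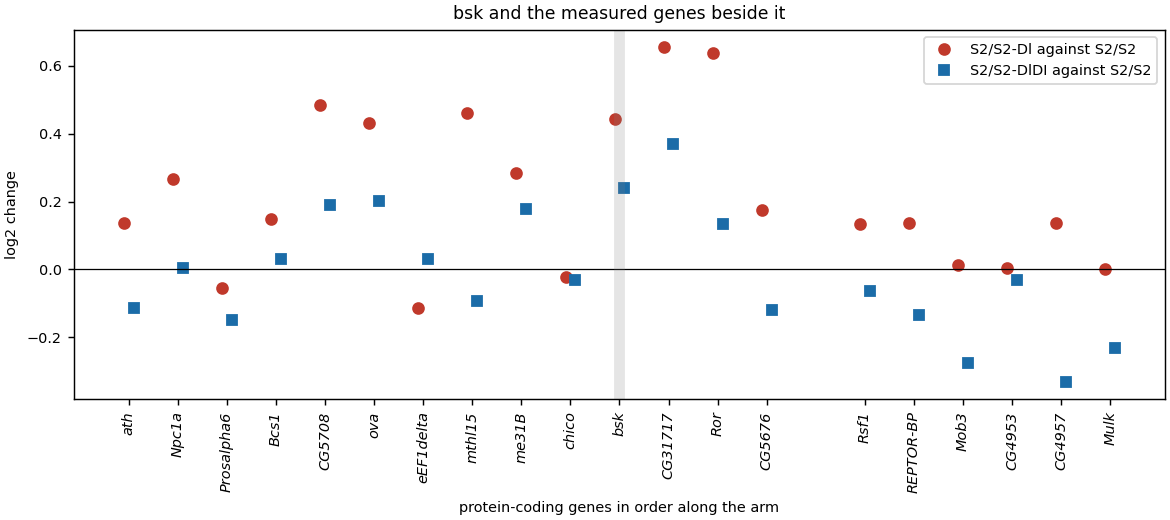
Log2 change (vertical axis) of bsk, shaded, and the measured protein-coding genes on each side of it, in their order along arm 2L. Red circles are S2/S2-Dl against S2/S2 and blue squares S2/S2-DlDI against S2/S2. Of 19 neighbours, 16 circles and 8 squares lie above 0. Over all probe sets 37.9% and 35.5% of the changes were positive.

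The AP-1 subunit genes passed in no comparison. Jra had 789, 993 and 1042 in S2/S2-Dl, 1008 and 1071 in S2/S2-DlDI and 1193 and 1221 in S2/S2-NDCterm, against 504, 1030.4 and 982 in S2/S2. Both S2/S2-NDCterm samples lay above every S2/S2 sample (0.57 ± 0.23, adjusted p = 0.452). For S2/S2-Dl the change was 0.21 ± 0.20 (adjusted p = 0.731) and for S2/S2-DlDI 0.36 ± 0.23 (adjusted p = 0.717). The Jra probe set carries a suffix that Affymetrix gives to probe sets shared by similar transcripts, so its signal may include more than this gene.

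kay, the Fos partner, had 2001, 2596 and 2224 in S2/S2-Dl, 3051 and 2325 in S2/S2-DlDI and 2629 and 2445 in S2/S2-NDCterm, against 1699, 2353 and 2272 in S2/S2. The samples of S2/S2-Dl and S2/S2-DlDI overlapped those of S2/S2, and those of S2/S2-NDCterm did not. The changes were 0.11 ± 0.15, 0.35 ± 0.16 and 0.28 ± 0.16, with adjusted p of 0.81, 0.649 and 0.616. The dimmer kay probe set lay between 17.2 and 44.9 in 14 samples and at 2.36 in S2-NFull/S2, where the left-out arrays had 56.7 and 31.1.

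puc, the phosphatase gene used as a readout of JNK activity, was highest in S2/S2-NDCterm, at 3159 and 2763, against 898, 2309 and 1819 in S2/S2. Both samples lay above all of S2/S2, yet the change of 0.91 ± 0.28 did not pass (adjusted p = 0.327). S2/S2-Dl, at 1595, 2256 and 2068, and S2/S2-DlDI, at 2220.1 and 1962, overlapped S2/S2 (0.32 ± 0.25 and 0.41 ± 0.28, adjusted p = 0.667 and 0.724). With Delta cells added beside NDCterm, puc had 2336 and 2707 in S2-NDCterm/S2-Dl, against 3159 and 2763 in S2/S2-NDCterm (-0.23 ± 0.31, adjusted p = 0.991). The SD of puc in S2/S2 was 716 around a mean of 1675.

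Other measures moved in S2/S2-NDCterm beside puc, Jra, Ets21C and wgn. The Gapdh 3′ to 5′ ratio, described above, was 2.41 and 1.87 in S2/S2-NDCterm, against 2.71, 2.77 and 2.97 in S2/S2. The summed signal of the 11 plasmatocyte markers was 15039 to 15430.5 in S2/S2-NDCterm, against 9467 to 13308 in S2/S2. Most of the S2/S2 sum came from 1 gene, Nplp2, with a mean of 7098 there, so the sum says little about the other markers. That of 7 crystal cell and lamellocyte markers was 2206 to 2288 in S2/S2-NDCterm, against 2624 to 3841 in S2/S2. Of these 7, 1 (mys, at 3213) had a signal above 100 in S2/S2, and it made up most of the sum there. PPO2 and PPO3 had 83.9 and 86.9 in S2/S2, while lz and PPO1 were near 0, at 10.4 and 5.80. The part of these measures in the S2/S2-NDCterm values was not tested.

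Ets21C, an ETS transcription factor that acts with AP-1 in fly stress and tumour models, was also above S2/S2 in S2/S2-NDCterm without passing. It had 128.01 and 119.6 in S2/S2-NDCterm, against 42.4, 77.7 and 72.1 in S2/S2, without overlap (0.72 ± 0.21, adjusted p = 0.293). It was 108 and 163 in S2-NDCterm/S2-Dl, against 128.01 and 119.6 in S2/S2-NDCterm (0.09 ± 0.23, adjusted p = 1). S2/S2-Dl had 60.0, 87.1 and 87.9 (0.21 ± 0.19, adjusted p = 0.714) and S2/S2-DlDI 93.3 and 90.7 (0.39 ± 0.21, adjusted p = 0.697).

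Gadd45, a relative of mammalian stress-induced proteins that activate kinases above JNK, had 129.8, 178 and 145 in S2/S2-Dl, against 120.1, 265 and 92.9 in S2/S2. The highest of all 15 samples was S2/S2 replicate 2, so the groups overlapped (0.03 ± 0.26, adjusted p = 0.976). Beside NFull, Gadd45 was 146.6 in S2-NFull/S2-Dl and 67.6 in S2-NFull/S2-DlDI (0.84 ± 0.45, adjusted p = 0.763). The 4 left-out arrays of S2-NFull/S2-DlDI had 158 and 153 where Delta was high, and 59.8 and 73.3 where it was low.

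**Figure D3:**
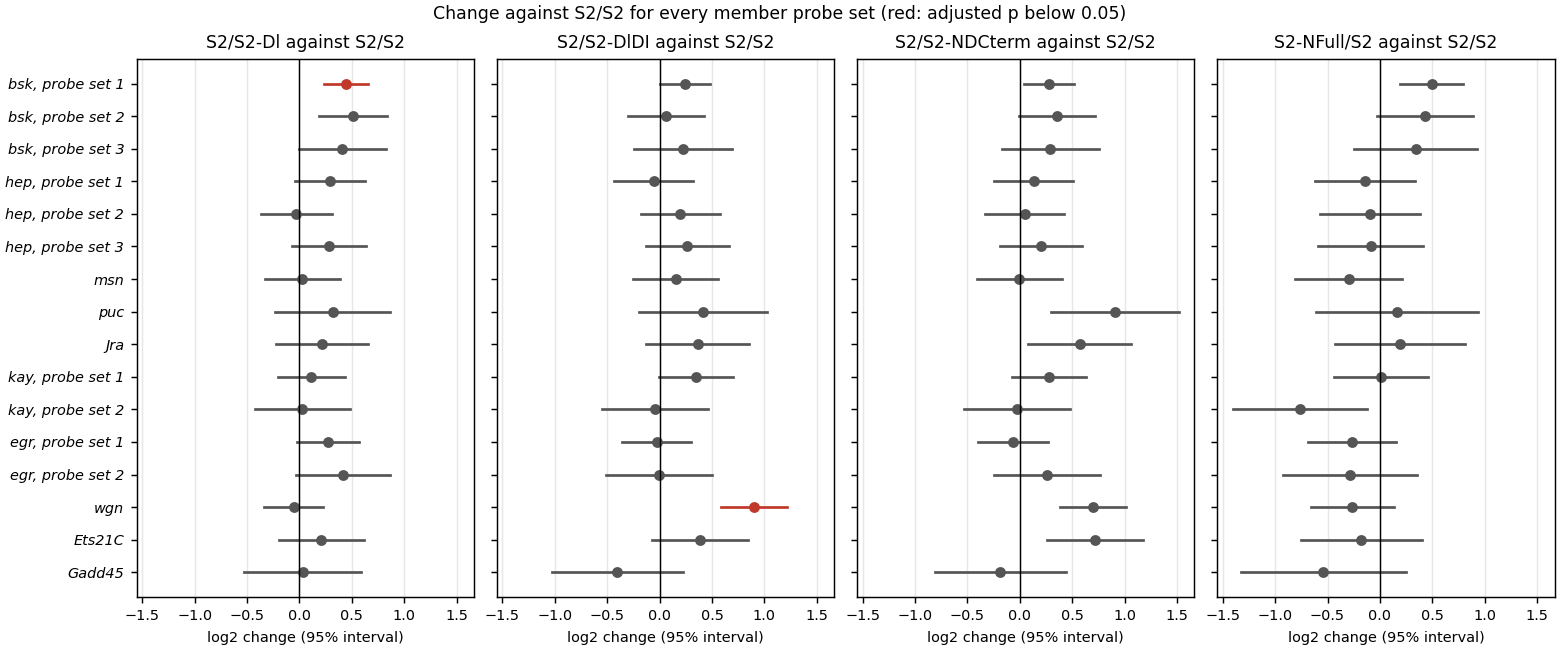
Log2 change (horizontal axis, with its 95% interval as a bar) of all 16 member probe sets in the 4 mixes of a line with plain cells, each against S2/S2. Probe sets of a gene are numbered by falling mean signal. Red marks the calls, bsk in S2/S2-Dl (0.44) and wgn in S2/S2-DlDI (0.90).

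In the 9 comparisons of mixes the members' calls were those of bsk and wgn given above. In S2/S2-Dl against S2/S2, 14 of 16 member probe sets were positive with a median of 0.24, where 37.9% of all probe sets were positive with a median of -0.05. For S2/S2-DlDI the count was 11 (median 0.21; all probe sets 35.5% and -0.06), and for S2/S2-NDCterm 12 (median 0.27; 37.5% and -0.05). For S2-NFull/S2 it was 6 (median -0.12; 36.8% and -0.06). Counted once per gene, on the highest-mean probe set, 9, 7, 7 and 4 of 10 genes were positive in this order. The members are brighter than the background: 13 of 16 had a mean signal of at least 32, against 7046 of all 18769. The shares of all probe sets are thus not those of equally bright ones. The 3 S2/S2 samples, among them replicate 2 with its array median of 20.9, stand behind each of these counts.

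No member was called in 5 of the 9 comparisons. In S2/S2-NDCterm against S2/S2, limma called 0 of 16, where 0.165% of all probe sets were called, and 5 had an unadjusted p below 0.05 (9.47% of all). In S2-NFull/S2 against S2/S2, limma called 0, where 0.181% were called, and 2 had an unadjusted p below 0.05 (6.84% of all). In S2-NDCterm/S2-Dl compared with S2/S2-NDCterm, limma called 0, where 0.49% were called, and 3 had an unadjusted p below 0.05 (7.63% of all). In S2-NFull/S2-Dl compared with S2-NFull/S2, limma called 0, where 0.293% were called, and 4 had an unadjusted p below 0.05 (9.52% of all). In S2-NFull/S2-DlDI against S2-NFull/S2, limma called 0, where 0.0213% were called, and 2 had an unadjusted p below 0.05 (3.5% of all).

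The design also asks whether the answer to a ligand line differs with the cells beside it, and 3 differences of changes addressed this. For Delta cells beside NDCterm against Delta cells beside plain cells, limma called 0 of 16 members, where 0.0107% of all probe sets were called, and 0 members had an unadjusted p below 0.05 (3.46% of all). For Delta cells beside NFull against beside plain cells it called 0, where 0.0213% were called. The hep probe set with the highest mean, at 0.71 ± 0.31 (adjusted p = 0.936), was the 1 member with an unadjusted p below 0.05 (5.21% of all). For DlDI cells beside NFull against beside plain cells it called 0, where 0% were called. There hep had a difference of 1.06 ± 0.32 (adjusted p = 1), the 1 member with an unadjusted p below 0.05 (2.58% of all). The wgn differences were -0.37 ± 0.21, -0.39 ± 0.26 and -0.07 ± 0.27 in this order, and those of bsk 0.08 ± 0.16, 0.12 ± 0.20 and 0.00 ± 0.20.

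Signals of puc, Jra, kay and Ets21C went together across samples. All 4 genes were lowest of the 15 samples in S2/S2 replicate 1, at 898 for puc, 504 for Jra, 1699 for kay and 42.4 for Ets21C. The next lowest samples had 1595 for puc, 787 for Jra, 2001 for kay and 51.6 for Ets21C. A left-out array of S2-NFull/S2 replicate 1 was low as well, with 1252 for puc, 571 for Jra, 1739.9 for kay and 42.9 for Ets21C. This one S2/S2 sample enters every change against S2/S2 for these genes.

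Over the 15 samples, 45 pairs of member genes were correlated on their highest-mean probe sets. puc and Jra had a Pearson r of 0.94 (permutation adjusted p = 0.00045) and a Spearman rho of 0.868 (permutation adjusted p = 0.0015). With the mean of each mix removed r was 0.928, and without the 2 samples farthest from the median of puc it was 0.832. puc and Ets21C had an r of 0.83 and a rho of 0.864 (permutation adjusted p = 0.0009 and 0.000675), 0.865 within mixes and 0.838 without the 2 farthest. puc and kay had an r of 0.815 and a rho of 0.761 (permutation adjusted p = 0.00405 and 0.0114), 0.86 within mixes and 0.684 without the 2 farthest. The samples of a mix share cells, and same-numbered S2/S2 and S2/S2-Dl samples went together, so the samples are not fully independent. The 3 mixes with 1 sample add nothing to an r within mixes. The SD of puc was 716 in S2/S2 and 341 in S2/S2-Dl, the next largest, and that of Jra 291 and 134. Values within mixes for puc and Jra thus lean on S2/S2, where replicate 1 was lowest.

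The remaining pairs of these 4 genes had a lower r. By rho, Jra and Ets21C were the closest of the 45 pairs. Jra and Ets21C had an r of 0.774 and a rho of 0.893 (permutation adjusted p = 0.00405 and 0.000675), and kay and Ets21C an r of 0.66 and a rho of 0.675 (0.0413 and 0.0468). Jra and kay had an r of 0.727 (permutation adjusted p = 0.0204) and a rho of 0.529 (0.17), and r was 0.398 without the 2 samples farthest from the median of Jra, so this relation rests on those samples. Outside these 4 genes, bsk and hep had an r of 0.791 and a rho of 0.721 (permutation adjusted p = 0.00405 and 0.025), 0.381 within mixes. The other hep probe sets did not share this. With the hep probe set of like mean signal (161, against 170 for the first) r was -0.294, and with the dimmest 0.0913. egr and Gadd45 had an r of 0.763 and a rho of 0.775 (permutation adjusted p = 0.0054 and 0.0114), 0.841 within mixes. These 8 pairs were those with an adjusted p below 0.05 for r, and puc was not among them with bsk (r = 0.237) or hep (0.0877).

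**Figure D4:**
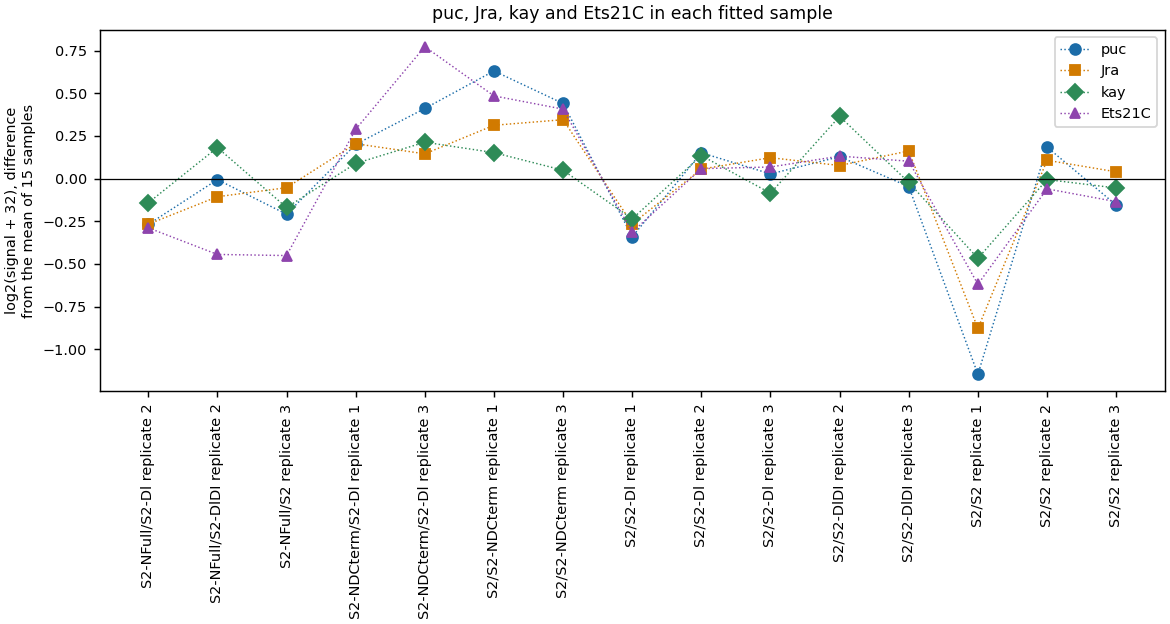
Difference of log2(signal + 32) from the mean of the 15 fitted samples (vertical axis) for puc, Jra, kay and Ets21C in every fitted sample, ordered by mix. Dotted lines only join the points of a gene. All 4 genes are lowest in S2/S2 replicate 1, and puc and Jra are highest in S2/S2-NDCterm.

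Other genes of the route were taken as 6 lists of 62 genes, of which 42 had a probe set of their own. Those without one by the annotation, so not counted here, included Tak1, Rac1, Rac2, Cdc42 and Src42A. They also included the reported targets Mmp1, upd3, hid and rpr, and the caspase genes Drice and Diap1. None of the 42 was called higher and none lower in any comparison, where 0% to 1.31% of all probe sets were called. The smallest adjusted p values were in S2/S2-Dl against S2/S2. Ask1, a stress kinase above JNK, averaged 84.7 in S2/S2-Dl and 159 in S2/S2 (-0.70 ± 0.17, adjusted p = 0.064). Cka, a scaffold that binds Basket and its partners, averaged 527 in S2/S2-Dl and 353 in S2/S2 (0.55 ± 0.14, adjusted p = 0.0815). maf-S, a small Maf protein, averaged 1029 in S2/S2-Dl and 1365 in S2/S2 (-0.39 ± 0.10, adjusted p = 0.0881).

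By list, S2/S2-Dl against S2/S2 had 5 of 10 upstream kinases and adaptors positive (median 0.10), 5 of 7 scaffolds and regulators (0.06), 2 of 7 bZIP partners of AP-1 (-0.23), 6 of 10 reported JNK or AP-1 target genes (0.06), 1 of 5 genes of other MAP kinase cascades (-0.06) and 2 of 3 caspase genes (0.04). Over all probe sets 37.9% were positive, with a median of -0.05. S2/S2-NDCterm against S2/S2 had 8 of 10 reported target genes positive (median 0.23) and 0 of 7 bZIP partners (-0.25). It had 5 of 10 upstream kinases and adaptors positive (0.02) and 5 of 7 scaffolds and regulators (0.23). For other MAP kinase cascades it was 1 of 5 (-0.03), and for caspase genes 2 of 3 (0.39). Over all probe sets 37.5% were positive there, with a median of -0.05. The targets cher and chic are named because of their values. Among the targets, cher, the actin crosslinker filamin, averaged 783 in S2/S2-NDCterm and 462 in S2/S2 (0.71, adjusted p = 0.272), and chic, profilin, 6171 in S2/S2-NDCterm and 4776 in S2/S2 (0.37, adjusted p = 0.337). grnd, the other TNF receptor gene, averaged 1.40 in S2/S2-Dl and 3.46 in S2/S2, and dpp, a classical target in the embryo, 7.28 in S2/S2-Dl and 5.27 in S2/S2.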

How the data were processed

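RNA of 24 arrays was measured with an Affymetrix-type Drosophila array. The deposited tables hold 1 linear signal intensity per probe set, scaled by the authors to a 2%-trimmed mean of 150.004 to 150.005. The software that made them was not given in the sources used here. Of 18952 probe sets, 183 controls were left out and 18769 tested, of which 13647 name a single gene. Signals became log2(signal + 32). Arrays sharing a title were averaged only within 2 limits set by separate replicates. These were an SD of the log2 difference below their lowest, 0.213, and a Delta difference of at most their highest, 0.483. In limma 3.58.1 (R 4.3.3) 1 model of 8 mixes over 15 samples used a moderated spread with a mean trend, and p values were adjusted within each of 12 comparisons. Members, lists and tests were chosen with earlier results of these data known. Genes named beyond the members were those closest by correlation to the 2 most variable members, called list genes, and some named after their values were seen (the list genes with the smallest p values, cher, chic, grnd, dpp and the neighbours of bsk). Lists, counted without a set test, covered upstream kinases and adaptors, scaffolds and regulators, bZIP partners, reported targets, other MAP kinase cascades and caspases. Replicate numbers pair S2/S2-Dl and S2/S2, with residual correlations of 0.666, 0.42 and 0.522. The values were lower for S2/S2-DlDI, 0.312 and 0.405 with S2/S2 and 0.318 and 0.332 with S2/S2-Dl. A planned motif count in promoters was not made, since no promoter sequence was used here. The alternatives tried were another scaling by quantiles, an offset of 8 and 1 that is 4 times as large as the main one, a filter at a mean signal of 32, every shared title averaged, a replicate block and leaving out each sample.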

Additional observations from a re-analysis of the deposited data

Results flagged for a closer look

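Delta signal was above the highest S2/S2 value of 41.3 on 4 arrays that entered no test. It was 11381.6 on array 1 of S2-NDCterm/S2-Dl replicate 2, a mix that holds Delta cells, where array 2 had 13.9. It was 12295.2 on array 1 and 156.3 on array 2 of S2-NFull/S2-DlDI replicate 1, and 11031.4 on array 1 of S2-NFull/S2-DlDI replicate 3. On these arrays wgn was 846, 472, 815 and 475 in the order given, and the brightest bsk probe set was 1681, 2383, 2046 and 1946. Every array stayed under the mix that its title gives.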

How the results depend on the processing

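None of the 4 called changes reversed under the alternatives run: bsk in S2/S2-Dl ranged from 0.41 to 0.51, wgn from 0.80 to 1.01 in S2/S2-DlDI against S2/S2, from -1.06 to -0.85 in S2/S2-Dl against S2/S2-DlDI, and from -1.32 to -0.88 in S2-NFull/S2-Dl compared with S2-NFull/S2-DlDI. Members called fell to 0 for S2/S2-Dl and for S2/S2-DlDI against S2/S2 with quantile normalization, a 4 times larger offset and every shared title averaged, and for S2-NFull/S2-Dl compared with S2-NFull/S2-DlDI with the last 2. With every shared title averaged 1 member, bsk, was called in S2-NFull/S2 against S2/S2. The cause was not tested. Leaving out each sample gave 0 to 1 member calls for S2/S2-Dl and S2/S2-DlDI against S2/S2, for S2/S2-Dl against S2/S2-DlDI and for S2/S2-NDCterm against S2/S2 (wgn, adjusted p = 0.0491 without S2/S2 replicate 3). The only samples of 3 mixes could not be left out. Calls over all probe sets for S2/S2-Dl against S2/S2 were 245, and 231 to 540 under the alternatives (93 to 335 without a sample). For S2/S2-DlDI against S2/S2 they were 14, and 11 to 25 (4 to 19). For S2/S2-Dl against S2/S2-DlDI they were 120, and 121 to 219 (46 to 123). For S2/S2-NDCterm against S2/S2 they were 31, and 23 to 293 (5 to 71). For S2-NFull/S2 against S2/S2 they were 34, and 37 to 174. For S2-NDCterm/S2-Dl compared with S2/S2-NDCterm they were 92, and 50 to 234 (16 to 35). For S2-NFull/S2-Dl they were 55 against S2-NFull/S2, and 46 to 131, and 40 against S2-NFull/S2-DlDI, and 5 to 71. For S2-NFull/S2-DlDI against S2-NFull/S2 they were 4, and 4 to 17. The 3 differences of changes had 2, 4 and 0 calls, with 1 to 3, 1 to 7 and 0 under the alternatives.

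With replicate number as a block, 3 members were called in S2/S2-NDCterm against S2/S2, puc (adjusted p = 0.0223), wgn (0.0413) and Ets21C (0.0401), and 1, bsk (0.0315), in S2-NDCterm/S2-Dl compared with S2/S2-NDCterm. Of all 18769 probe sets, the alternatives called up to 293 in the first of these comparisons and up to 234 in the second. The main fit called 31 and 92. The block changed no other member call. These mixes share 2 replicate numbers, with residual correlations of 0.0681 and 0.0577 for S2/S2-NDCterm with S2/S2. For S2-NDCterm/S2-Dl with S2/S2-NDCterm it was 0.129. With 2 samples in each of those mixes this value is the same at both numbers by construction. The numbers are not taken to pair these mixes. Signals near or under the offset of 32, as in the dimmest bsk, hep and kay probe sets, limit what a change can show, and no detection calls were used.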

Other observations

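Suppose the populations held equal shares in every mix and added up with no answer between them. A mix of both lines would then equal the sum of each line's mix with plain cells less S2/S2. The labels give no cell ratio, so equal shares are assumed. For wgn the measured signal was 870.5 in S2-NDCterm/S2-Dl against a sum of 1159, 424 in S2-NFull/S2-Dl against a sum of 559, and 1073 in S2-NFull/S2-DlDI against a sum of 1239. For the hep probe set with the highest mean it was 270.0 in S2-NFull/S2-Dl against a sum of 156, and 270.3 in S2-NFull/S2-DlDI against a sum of 111. The hep probe set with the next highest mean had 115 in S2-NFull/S2-Dl against a sum of 141. In S2-NFull/S2-DlDI that probe set had 201 against a sum of 173. For the brightest bsk probe set the measured signal was 1796 in S2-NDCterm/S2-Dl against a sum of 1615, and 2137 in S2-NFull/S2-Dl against a sum of 1815. Sums of mixes with 1 sample carry no spread of their own, and no test was made on this linear scale.

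Jra and egr lie close together on arm 2R, with 2 protein-coding genes between them in the RefSeq table. Their correlation over the 15 samples was 0.203, and 0.581 within mixes.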
